A study of Homo sapiens with 4 samples.

Results

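The DNAJ genes encode the J-domain co-chaperones, also called the HSP40 family, and their transcripts were compared between Jurkat cells carrying a hairpin against SOX4 (sh-SOX4) and Jurkat cells carrying a scrambled hairpin (sh-Scb). Jurkat is an established human T cell acute lymphoblastic leukemia line, and both groups are cultures of this 1 line transfected with an shRNA. Each group held 2 RNA-seq libraries, 4 in all. The members are the protein-coding rows of the gene count table whose symbol starts with DNAJA, DNAJB or DNAJC and a number, which gave 45 of 64252 gene IDs: 4 of class A, 12 of class B and 29 of class C. Total depth was 32872606 and 30830081 counts in sh-SOX4, against 36636219 and 29093287 counts in sh-Scb. The labels do not say whether replicates were separate cultures, so p-values measure only a spread between libraries that may be technical. They also do not say how many hairpins were used. SOX4 itself, the targeted transcription factor, had 191 and 199 CPM in the sh-SOX4 libraries, against 271 and 277 CPM in the sh-Scb libraries (CPM, counts per 1000000 of the TMM-scaled library size), 71.1% of the control level (log2 fold change -0.49, SE 0.044, edgeR adjusted p = 1.24e-05). SOX4 was lowered and not lost in both sh-SOX4 libraries, and the groups did not overlap.

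J-domain proteins bring client proteins to HSP70 chaperones and make HSP70 hydrolyse ATP, which locks the client in place. The J domain carries an invariant histidine, proline and aspartate triad (HPD) that is needed for this step. Class A proteins have a J domain at the N terminus, a glycine and phenylalanine rich region and a zinc-binding region. Class B proteins keep the N-terminal J domain and the glycine and phenylalanine rich region without the zinc-binding part, and class C proteins share the J domain alone, placed anywhere in the chain. Members work in the cytosol and nucleus, the endoplasmic reticulum (ER), mitochondria, on ribosomes and on vesicles, each with the HSP70 of its compartment.

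The triad could be read in the coding sequences. In the longest coding transcript of each gene in GENCODE 29 (GRCh38), codons for histidine, proline and aspartate in a row, searched in frame as CAC or CAT, then CCN, then GAC or GAT, were found in 44 of 45 members, in each of them at 1 site. The exception was DNAJB13. Over 19565 protein-coding genes, 5.62% held such a site. The first of these codons stood at codon 34 to 121 in class A, at codon 31 to 172 in class B with a median of 32, and at codon 31 to 1332 in class C with a median of 77. The latest site was that of DNAJC13. The stretches below are coding DNA, read 5′ to 3′ on the coding strand, with the codons of the triad in capitals and 30 bases on each side. They are shown for the largest rises of each class and for the falls DNAJB5 and DNAJC4, among called members with a mean log2 CPM of at least 2, so that the shared element can be seen in genes that went different ways.
DNAJA1: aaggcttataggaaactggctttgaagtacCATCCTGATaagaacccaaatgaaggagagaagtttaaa
DNAJA3: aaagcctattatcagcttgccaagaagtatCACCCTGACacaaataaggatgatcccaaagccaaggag
DNAJB12: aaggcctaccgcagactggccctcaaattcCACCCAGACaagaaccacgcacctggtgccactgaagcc
DNAJB11: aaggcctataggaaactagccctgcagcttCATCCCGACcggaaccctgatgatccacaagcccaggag
DNAJB5: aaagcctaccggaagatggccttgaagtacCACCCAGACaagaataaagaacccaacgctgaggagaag
DNAJC2: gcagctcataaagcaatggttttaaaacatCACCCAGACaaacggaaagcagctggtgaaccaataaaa
DNAJC11: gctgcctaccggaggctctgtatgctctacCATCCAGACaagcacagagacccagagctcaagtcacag
DNAJC4: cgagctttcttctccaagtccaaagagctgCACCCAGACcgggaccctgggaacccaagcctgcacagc
On GRCh38 these lie at DNAJA1 chr9:33026554-33026818, plus strand; DNAJA3 chr16:4434503-4437455, plus strand; DNAJB12 chr10:72343373-72343441, minus strand; DNAJB11 chr3:186572153-186572221, plus strand; DNAJB5 chr9:34993297-34993365, plus strand; DNAJC2 chr7:103327693-103337742, minus strand; DNAJC11 chr1:6680948-6681016, minus strand; and DNAJC4 chr11:64231938-64232471, plus strand. Those of DNAJA1, DNAJA3, DNAJC2 and DNAJC4 are joined across an intron, and all are exonic coding sequence.

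Many J-protein transcripts were higher in sh-SOX4 and few were lower. Of the 45 members, 44 passed the filter on low counts, and DNAJB8 had 0 counts in every library, which allows a level of up to 0.101 CPM (3 counts in the library with the smallest scaled size). The quasi-likelihood test of edgeR, adjusted by Benjamini-Hochberg over all 19897 IDs tested, called 19 members higher and 3 lower at an adjusted p under 0.05. That is 43.2% and 6.82% of the 44 tested, set against 23.2% of all tested IDs called higher and 20.9% called lower. In either direction 50% of the members and 44.1% of all IDs were called. The median log2 fold change was 0.21 over the tested members and -0.01 over all tested IDs. Without sh-SOX4 replicate 2 the members called lower numbered 5, and the median was 0.16.

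The classes differed in these counts, but no test compares them. In class A 3 of 4 members rose and none fell, with a median log2 fold change of 0.63. In class B 4 of 11 tested rose and 1 fell, with a median of -0.025. In class C 12 of 29 rose and 2 fell, with a median of 0.17. Over all tested IDs 23.2% were called higher and 20.9% lower, with a median of -0.01. Over all members the summed level was 2768 and 2745 CPM in the sh-SOX4 libraries, against 2147 and 2141 CPM in the sh-Scb libraries. Summed over the class, class A transcripts stood at 518 and 497 CPM in the sh-SOX4 libraries, against 279 and 261 CPM in the sh-Scb libraries. Class B summed to 652 and 646 CPM in the sh-SOX4 libraries, against 559 and 575 CPM in the sh-Scb libraries, and class C to 1598 and 1602 CPM in the sh-SOX4 libraries, against 1309 and 1305 CPM in the sh-Scb libraries. In each of these sums both sh-SOX4 libraries lay above both sh-Scb libraries. In bulk RNA, a change in the share of cells of a kind and a change in RNA per cell cannot be told apart.

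**Figure D1:**
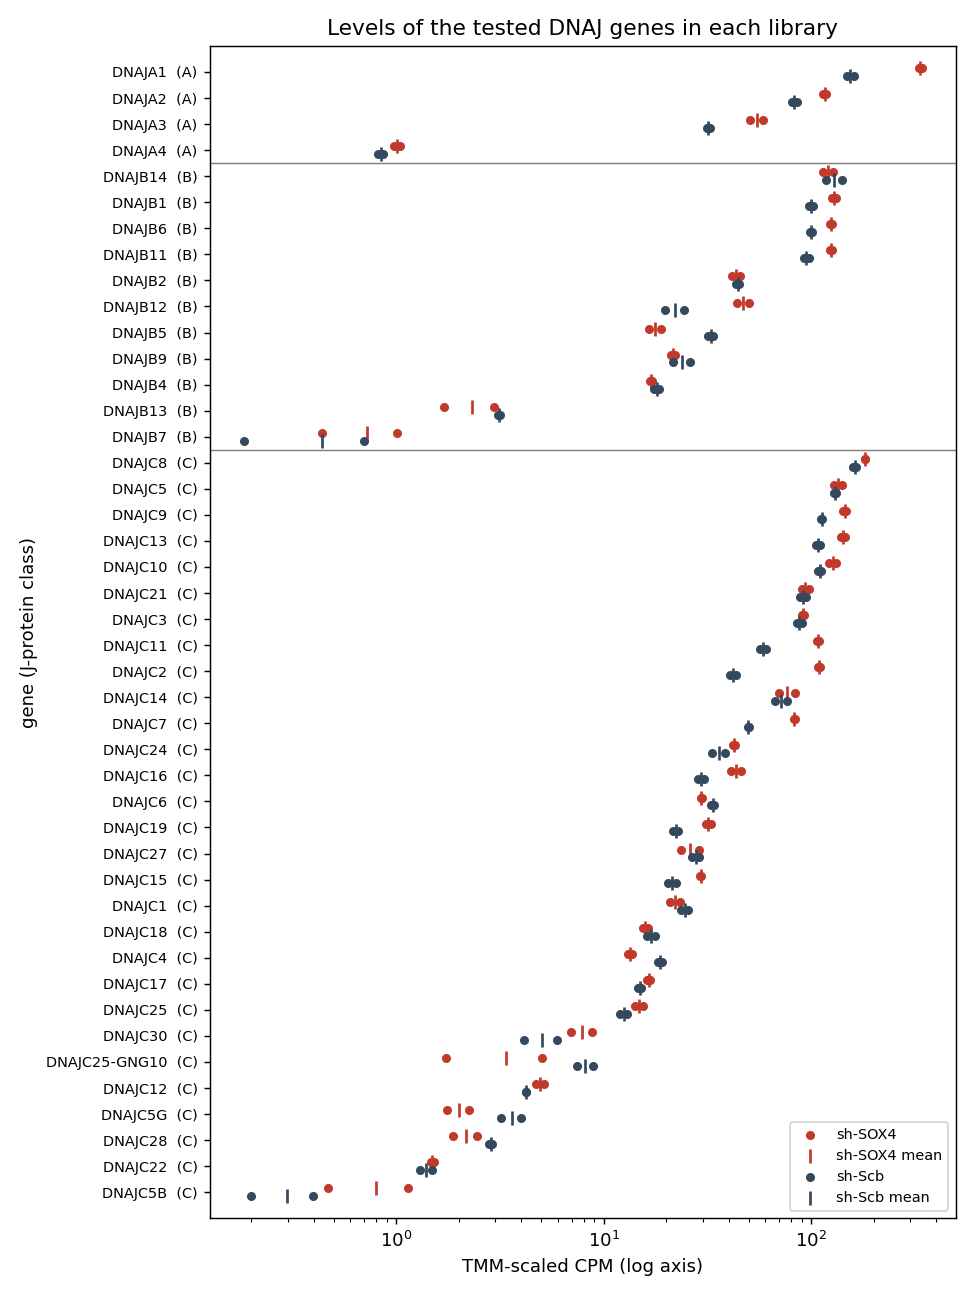
Level of each tested DNAJ gene in each library, as TMM-scaled CPM on a log axis, with classes A, B and C from top to bottom and genes ordered by mean level; dots are libraries, upright ticks are means of 2. DNAJA1 stands highest in class A and apart between the groups (341 and 331 CPM in sh-SOX4, against 160 and 148 CPM in sh-Scb), whereas genes under about 10 CPM scatter more between libraries.

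The cytosolic co-chaperones DNAJA1, DNAJA2, DNAJB1, DNAJB6 and DNAJC7 rose. DNAJA1 (ENSG00000086061, chromosome 9, 33025211 to 33039907), an abundant class A partner of the constitutive HSP70 protein HSPA8, was at 341 and 331 CPM in the sh-SOX4 libraries, against 159.9 and 148 CPM in the sh-Scb libraries. This is a 2.18-fold difference between means of 336 ± 7.10 CPM in sh-SOX4 and 154 ± 8.39 CPM in sh-Scb (SD, n = 2 each), far beyond the spread between libraries (log2 fold change 1.12, SE 0.050, adjusted p = 1.36e-07). It had 6 pseudogene copies in the table, and adding their counts to it left its call in place. Per length, DNAJA1 was the most abundant member of the family in both groups, at 123 CPM per kb in sh-SOX4 and 56.4 CPM per kb in sh-Scb, followed in both by DNAJC8, DNAJC9, DNAJB1 and DNAJC5. Length here is all exonic bases annotated to a gene, not 1 transcript. DNAJB6, with 14981 such bases, ranked 18 in both groups, so ranks, shares and ratios per length depend on the annotation. The lengths are the same in every library. DNAJA2, the other main cytosolic class A protein, had 118 and 114 CPM in the sh-SOX4 libraries, against 85.5 and 80.6 CPM in the sh-Scb libraries (log2 fold change 0.49, SE 0.054, adjusted p = 4.95e-05). Its rise was smaller, so that the ratio of DNAJA1 to DNAJA2 per length was 5.33 and 5.36 in the sh-SOX4 libraries, against 3.47 and 3.41 in the sh-Scb libraries. DNAJA1 accounted for 79.7% and 80.2% of the summed per-length level of class A in the sh-SOX4 libraries, and for 73.1% and 72.6% in the sh-Scb libraries. DNAJA4, a class A relative, was scarce at 1.04 and 0.974 CPM in the sh-SOX4 libraries, against 0.820 and 0.863 CPM in the sh-Scb libraries. It did not pass (log2 fold change 0.26, SE 0.37, adjusted p = 0.609).

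DNAJB1, the heat-inducible HSP40 after which the family is named, rose less than DNAJA1. It was counted at 126 and 132 CPM in the sh-SOX4 libraries, against 102 and 97.1 CPM in the sh-Scb libraries (log2 fold change 0.37, SE 0.053, adjusted p = 0.000262), a 1.29-fold difference with no overlap of the groups. The ratio of DNAJA1 to DNAJB1 per length was 3.65 and 3.36 in the sh-SOX4 libraries, against 2.11 and 2.05 in the sh-Scb libraries. DNAJB6, which keeps polyglutamine proteins from aggregating, had 126 and 123 CPM in the sh-SOX4 libraries, against 98.5 and 100.4 CPM in the sh-Scb libraries (log2 fold change 0.33, SE 0.048, adjusted p = 0.000355). It has 8 pseudogene copies in the table, whose counts did not change its call when added. DNAJC7, a tetratricopeptide repeat protein that binds both HSP70 and HSP90, rose 1.67-fold, with 83.3 and 82.4 CPM in the sh-SOX4 libraries, against 49.4 and 49.97 CPM in the sh-Scb libraries (log2 fold change 0.74, SE 0.056, adjusted p = 4.19e-06). Both sh-SOX4 libraries were above both sh-Scb libraries in these 3 genes.

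DNAJB5 went the other way. This class B gene (chromosome 9, 34989641 to 34998900), a close relative of DNAJB1, fell to 18.9 and 16.6 CPM in the sh-SOX4 libraries, against 33.8 and 31.8 CPM in the sh-Scb libraries. Its level in sh-SOX4 was 0.542 times that in sh-Scb (log2 fold change -0.88, SE 0.10, adjusted p = 6.75e-05). DNAJB2, a ubiquitin-binding member known from neurons, and DNAJB4 did not pass. DNAJB2 was at 45.5 and 41.4 CPM in the sh-SOX4 libraries, against 43.6 and 44.8 CPM in the sh-Scb libraries (log2 fold change -0.03, SE 0.077), and its groups overlapped. DNAJB4 was at 17.1 and 16.7 CPM in the sh-SOX4 libraries, against 17.6 and 18.4 CPM in the sh-Scb libraries (log2 fold change -0.09, SE 0.10). Of the 9 members with cytosolic and nuclear folding roles, 5 rose, 1 fell and 3 did not pass, where 23.2% of all tested IDs were called higher and 20.9% lower.

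**Figure D2:**
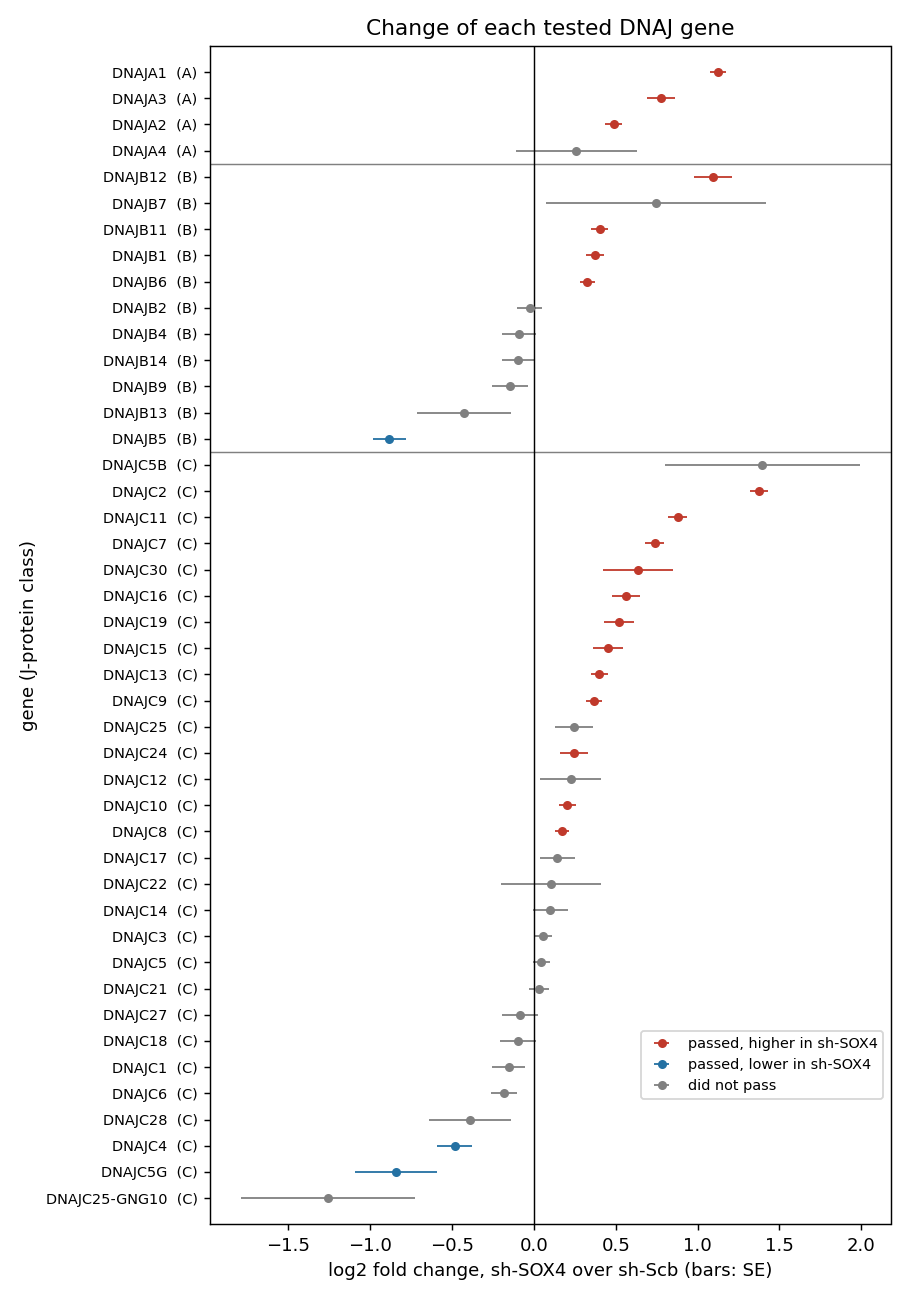
Log2 fold change of each tested DNAJ gene, sh-SOX4 over sh-Scb, with its SE as a bar, grouped by class; red passed the test and was higher in sh-SOX4, blue passed and was lower, grey did not pass. Class A has 3 of its 4 genes in red, where 23.2% of all tested IDs were called higher. The widest bars belong to scarce genes such as DNAJB7 and DNAJC5B.

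Of the 7 mitochondrial members 5 rose and 1 fell, where 23.2% of all tested IDs were called higher and 20.9% lower. DNAJC11 (chromosome 1, 6634168 to 6701924), an outer-membrane associated protein that contacts the cristae-organising MICOS complex, had 107 and 109 CPM in the sh-SOX4 libraries, against 60.5 and 56.5 CPM in the sh-Scb libraries (log2 fold change 0.88, SE 0.056, adjusted p = 1.38e-06). Of its exonic bases 27.9% are shared with THAP3 on the opposite strand, and without strand the reads of the pair cannot be told apart. DNAJA3, the class A protein of the matrix and partner of the mitochondrial HSP70 protein HSPA9, was at 58.3 and 50.9 CPM in the sh-SOX4 libraries, against 32.4 and 31.3 CPM in the sh-Scb libraries (log2 fold change 0.78, SE 0.084, adjusted p = 4.56e-05). The sh-SOX4 libraries differed from each other by more than the sh-Scb libraries did, yet both lay above them.

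The import motor, which pulls precursor proteins through the inner membrane, has alternative J-proteins. DNAJC19 had 32.9 and 31.0 CPM in the sh-SOX4 libraries, against 22.9 and 21.5 CPM in the sh-Scb libraries (log2 fold change 0.52, SE 0.092, adjusted p = 0.00108). DNAJC15 had 29.4 and 29.2 CPM in the sh-SOX4 libraries, against 22.2 and 20.5 CPM in the sh-Scb libraries (log2 fold change 0.45, SE 0.093, adjusted p = 0.00277). Both rose, and neither gene's groups overlapped. DNAJC19 has 9 pseudogene copies in the table, and adding their counts left its call in place. DNAJC30, an intronless gene whose protein acts at the inner membrane, had 6.94 and 8.77 CPM in the sh-SOX4 libraries, against 5.95 and 4.12 CPM in the sh-Scb libraries (log2 fold change 0.63, SE 0.22, adjusted p = 0.0366). Its call was lost under 4 of up to 12 alternative settings, among them those without sh-SOX4 replicate 2 and without sh-Scb replicate 2. DNAJC4 fell, with 13.1 and 13.7 CPM in the sh-SOX4 libraries, against 19.2 and 18.3 CPM in the sh-Scb libraries (log2 fold change -0.48, SE 0.11, adjusted p = 0.00443), and DNAJC28 did not pass at 2.46 and 1.88 CPM in the sh-SOX4 libraries, against 2.91 and 2.79 CPM in the sh-Scb libraries (log2 fold change -0.39, SE 0.25). Summed over the 7 genes, mitochondrial J-protein transcripts stood at 249.7 and 244 CPM in the sh-SOX4 libraries, against 166 and 155 CPM in the sh-Scb libraries.

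Of the 10 members grouped under the ER, 4 rose, none fell and 6 did not pass. Over all tested IDs, 23.2% were called higher and 20.9% lower. DNAJB12 (chromosome 10, 72332830 to 72355230), a membrane protein whose J domain faces the cytosol and recruits HSPA8 to ER-associated degradation, had 43.9 and 49.9 CPM in the sh-SOX4 libraries, against 19.7 and 24.3 CPM in the sh-Scb libraries. Its 2.13-fold rise (log2 fold change 1.09, SE 0.11, adjusted p = 5.19e-05) was the largest of class B among the genes that passed. DNAJB14, its paralog with the same topology, was at 127 and 115 CPM in the sh-SOX4 libraries, against 117 and 141 CPM in the sh-Scb libraries and its groups overlapped (log2 fold change -0.10, SE 0.098). Without sh-Scb replicate 1, DNAJB14 was called lower (log2 fold change -0.22, edgeR adjusted p = 0.00518).

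Inside the ER lumen, DNAJB11, a soluble cofactor of the ER HSP70 protein HSPA5, rose, with 124 and 127 CPM in the sh-SOX4 libraries, against 97.3 and 91.9 CPM in the sh-Scb libraries (log2 fold change 0.40, SE 0.052, adjusted p = 0.000138). Of its exonic bases 23.2% are shared with other genes, TBCCD1 among them. DNAJC16, an ER membrane protein, rose to 41.2 and 45.9 CPM in the sh-SOX4 libraries, against 30.4 and 28.6 CPM in the sh-Scb libraries (log2 fold change 0.56, SE 0.087, adjusted p = 0.000489). DNAJC10, a disulfide reductase, had 131 and 122 CPM in the sh-SOX4 libraries, against 112 and 108 CPM in the sh-Scb libraries (log2 fold change 0.20, SE 0.053, adjusted p = 0.0103), and its call was lost without sh-SOX4 replicate 1 (edgeR adjusted p = 0.0799) and with scaling to library totals (edgeR adjusted p = 0.132). DNAJB9, a stress-induced repressor of the IRE1 sensor, was at 22.1 and 21.0 CPM in the sh-SOX4 libraries, against 26.1 and 21.6 CPM in the sh-Scb libraries. DNAJC3, also stress-induced and known to inhibit the kinase PERK, was at 90.6 and 91.8 CPM in the sh-SOX4 libraries, against 85.6 and 90.0 CPM in the sh-Scb libraries. Neither passed (log2 fold change -0.15, SE 0.11, and 0.06, SE 0.053). DNAJC1, DNAJC18 and DNAJC25 had log2 fold changes of -0.16, -0.10 and 0.25, none of which passed. Summed, the 10 ER genes stood at 631 and 626 CPM in the sh-SOX4 libraries, against 543 and 559 CPM in the sh-Scb libraries.

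The largest rise of the whole family among genes that passed was that of DNAJC2 (chromosome 7, 103312474 to 103344873), which sits on the ribosome with the HSP70 protein HSPA14 and receives nascent chains. It had 3504 and 3202 counts in the sh-SOX4 libraries, against 1543 and 1304 counts in the sh-Scb libraries. This is 110.5 and 108 CPM in the sh-SOX4 libraries, against 40.8 and 43.3 CPM in the sh-Scb libraries. The 2.59-fold difference (log2 fold change 1.38, SE 0.057, adjusted p = 9.67e-08) was far larger than the spread in either group. Of the exonic bases of DNAJC2 9.6% are shared with PMPCB on the opposite strand. Its partner HSPA14 had 104 and 100.1 CPM in the sh-SOX4 libraries, against 80.1 and 85.2 CPM in the sh-Scb libraries (log2 fold change 0.30, SE 0.055, adjusted p = 0.00127), a smaller rise. DNAJC21, a factor of 60S ribosomal subunit maturation, was at 97.1 and 90.0 CPM in the sh-SOX4 libraries, against 88.6 and 94.6 CPM in the sh-Scb libraries (log2 fold change 0.03, SE 0.059) and did not pass. DNAJC24, which takes part in the diphthamide modification of elongation factor eEF2, had 43.0 and 42.1 CPM in the sh-SOX4 libraries, against 33.4 and 38.5 CPM in the sh-Scb libraries (log2 fold change 0.25, SE 0.088, adjusted p = 0.045), close to the threshold. The DNAJC24 call was lost under 8 of up to 12 alternative settings, among them those without sh-SOX4 replicate 1, sh-SOX4 replicate 2 or sh-Scb replicate 1.

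**Figure D3:**
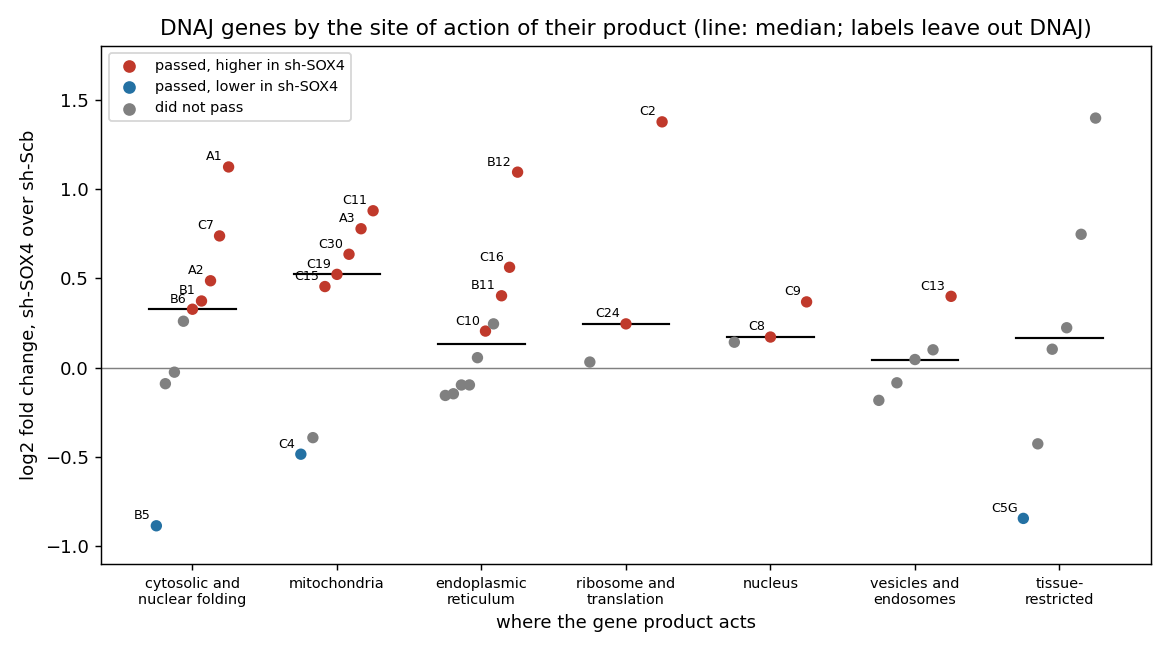
Log2 fold change of the tested DNAJ genes, sh-SOX4 over sh-Scb, by where their product acts; dots are genes, red passed and higher, blue passed and lower, grey did not pass, and the line is the median of the column. The mitochondrial column has 5 of its 7 genes in red and the ER column 4 of 10, where 23.2% of all tested IDs were called higher. DNAJC2 stands highest in the ribosome column at 1.38.

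Of 3 nuclear members, DNAJC9 and DNAJC8 rose, by less than DNAJA1 or DNAJC2, where 23.2% of all tested IDs were called higher. DNAJC9, a chaperone of histones H3 and H4, had 142 and 147 CPM in the sh-SOX4 libraries, against 112 and 112 CPM in the sh-Scb libraries (log2 fold change 0.37, SE 0.048, adjusted p = 0.000145). Of its exonic bases 29.1% are shared, in part with MRPS16 on the same strand, so some of its reads may belong to that gene. DNAJC8, a splicing-associated protein and the second most abundant member per length in both groups, had 183 and 182 CPM in the sh-SOX4 libraries, against 165 and 159 CPM in the sh-Scb libraries (log2 fold change 0.17, SE 0.045, adjusted p = 0.0112). Its call was lost without sh-SOX4 replicate 2, with library totals (edgeR adjusted p = 0.218) and with at least 10 CPM in 2 libraries (edgeR adjusted p = 0.053). DNAJC17 did not pass (log2 fold change 0.14, SE 0.11).

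Of the 5 members grouped under vesicles and endosomes 1 rose, a share near the 23.2% of all tested IDs called higher. DNAJC13, an endosomal protein that acts with the retromer, had 146 and 139 CPM in the sh-SOX4 libraries, against 110.5 and 105 CPM in the sh-Scb libraries (log2 fold change 0.40, SE 0.052, adjusted p = 0.000147). DNAJC5, the cysteine string protein of secretory vesicles, was at 129 and 140.1 CPM in the sh-SOX4 libraries, against 132 and 128 CPM in the sh-Scb libraries, and its groups overlapped. DNAJC6, the clathrin uncoating factor auxilin, was at 29.3 and 29.6 CPM in the sh-SOX4 libraries, against 33.0 and 33.9 CPM in the sh-Scb libraries. Neither passed (log2 fold change 0.05, SE 0.054, and -0.18, SE 0.082). With scaling to library totals DNAJC6 was called lower (log2 fold change -0.28, edgeR adjusted p = 0.0188). So it was with at least 10 CPM in 2 libraries (log2 fold change -0.25, edgeR adjusted p = 0.0218). DNAJC14, with 58.1% of its exonic bases shared, and DNAJC27 had log2 fold changes of 0.10 and -0.08 and did not pass.

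Members known mainly from testis or a few other tissues were scarce. DNAJC5G, a testis relative of DNAJC5, fell, with 56 and 67 counts in the sh-SOX4 libraries, against 121 and 121 counts in the sh-Scb libraries (log2 fold change -0.84, SE 0.25, adjusted p = 0.0213). That call was lost without sh-SOX4 replicate 1, without sh-Scb replicate 2 and with DESeq2 (DESeq2 adjusted p = 0.0647). DNAJC5B had 36 and 14 counts in the sh-SOX4 libraries, against 15 and 6 counts in the sh-Scb libraries. It did not pass (log2 fold change 1.40, SE 0.59). It was called higher without sh-SOX4 replicate 2 (edgeR adjusted p = 0.0292) and without sh-Scb replicate 1 (edgeR adjusted p = 0.0426). DNAJB13, a protein of the sperm flagellum and the member with no HPD codons, had 54 and 88 counts in the sh-SOX4 libraries, against 117 and 95 counts in the sh-Scb libraries. It did not pass (log2 fold change -0.43, SE 0.29), though it was called lower without sh-SOX4 replicate 2 (edgeR adjusted p = 0.0499). DNAJB7, DNAJC12, a partner of phenylalanine hydroxylase, and DNAJC22 had log2 fold changes of 0.75, 0.22 and 0.10 and did not pass.

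The readthrough locus DNAJC25-GNG10, which joins DNAJC25 to its neighbour GNG10, was uneven between replicates. It had 160 and 52 counts in the sh-SOX4 libraries, against 334 and 225 counts in the sh-Scb libraries. Every exonic base of it is shared with DNAJC25 or GNG10. It did not pass (log2 fold change -1.26, SE 0.53, adjusted p = 0.14). Leaving out sh-SOX4 replicate 1 gave -2.22 (edgeR adjusted p = 2.51e-06) and leaving out sh-SOX4 replicate 2 gave -0.70 (edgeR adjusted p = 0.0219). limma-voom also called it lower (log2 fold change -1.44, adjusted p = 0.0484).

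The HSP70 proteins that J-proteins serve were read from a list of 12 genes, of which 11 were tested. HSPA5, HSPA8, HSPA9 and HSPA14 rose, and HSPA12A, a divergent member, fell, where 23.2% of all tested IDs were called higher and 20.9% lower. HSPA8, the constitutive cytosolic protein, had 2309 and 2327 CPM in the sh-SOX4 libraries, against 613 and 587 CPM in the sh-Scb libraries (log2 fold change 1.95, SE 0.039, adjusted p = 3.73e-09), although 17 pseudogene copies in the table could take or give reads. HSPA9 had 624 and 626 CPM in the sh-SOX4 libraries, against 328 and 321 CPM in the sh-Scb libraries (log2 fold change 0.94, SE 0.039, adjusted p = 8.9e-08). HSPA5 had 644 and 664 CPM in the sh-SOX4 libraries, against 474 and 463 CPM in the sh-Scb libraries (log2 fold change 0.48, SE 0.039, adjusted p = 6.57e-06). The stress-inducible genes HSPA1A and HSPA1B were low and did not pass. HSPA1A was at 2.05 and 2.45 CPM in the sh-SOX4 libraries, against 1.96 and 1.76 CPM in the sh-Scb libraries (log2 fold change 0.27, SE 0.27). HSPA1B was at 3.85 and 4.27 CPM in the sh-SOX4 libraries, against 3.54 and 3.29 CPM in the sh-Scb libraries (log2 fold change 0.25, SE 0.21). These 2 genes are near-identical copies, so their reads may be split or lost. HSPA12A had 10 and 22 counts in the sh-SOX4 libraries, against 78 and 37 counts in the sh-Scb libraries (log2 fold change -1.65, SE 0.47, adjusted p = 0.017). That call was lost without sh-SOX4 replicate 1 (edgeR adjusted p = 0.0693) and without sh-Scb replicate 1 (edgeR adjusted p = 0.096).

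Set beside each other within a library and per length, HSP70 and J-protein transcripts did not keep the same ratio in every compartment. In the cytosol HSPA8 over DNAJA1 was 3.82 and 3.96 in the sh-SOX4 libraries, against 2.16 and 2.23 in the sh-Scb libraries, and HSPA8 over DNAJB1 was 13.9 and 13.3 in the sh-SOX4 libraries, against 4.55 and 4.58 in the sh-Scb libraries. Against all 9 cytosolic and nuclear folding members summed, HSPA8 stood at a ratio of 2.21 and 2.27 in the sh-SOX4 libraries, against 0.950 and 0.956 in the sh-Scb libraries. In mitochondria HSPA9 over DNAJA3 was 9.16 and 10.5 in the sh-SOX4 libraries, against 8.69 and 8.77 in the sh-Scb libraries. In the ER HSPA5 over DNAJB11 was 7.64 and 7.69 in the sh-SOX4 libraries, against 7.14 and 7.39 in the sh-Scb libraries. Each of these ratios was higher in both sh-SOX4 libraries than in either sh-Scb library. In the cytosol the groups were separated by more than the distance between replicates, and the sh-SOX4 libraries differed from each other in HSPA9 over DNAJA3 by more than the sh-Scb libraries did. With 2 libraries a group no exact permutation test could reach p < 0.05, so these ratios are given as values.

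**Figure D4:**
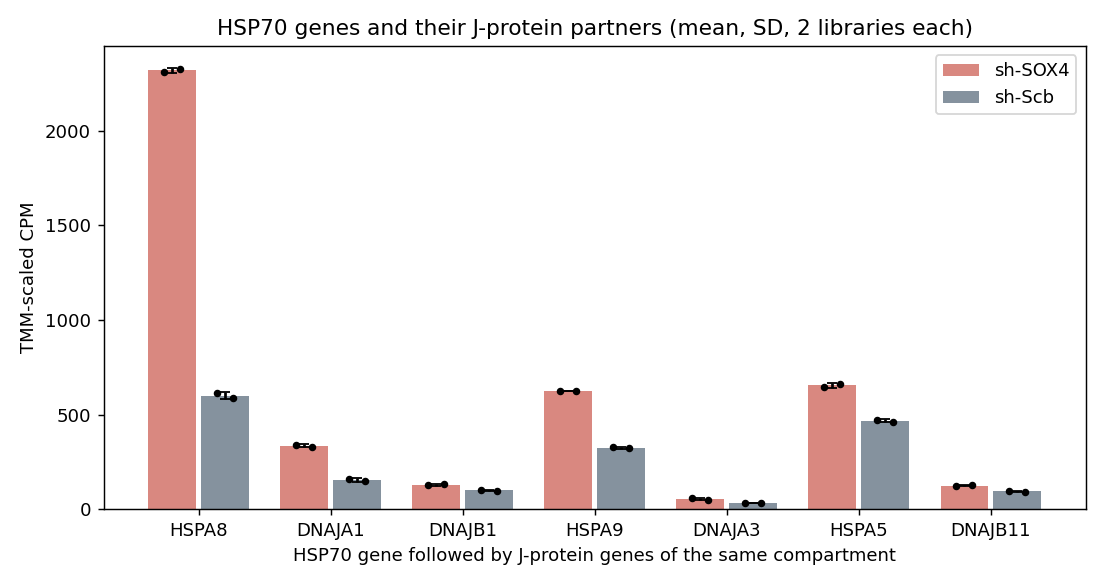
Mean TMM-scaled CPM of HSP70 genes and the J-protein genes that work beside them, in sh-SOX4 (left bar of each pair) and sh-Scb (right bar), with SD over 2 libraries as bars and each library as a dot; axis from 0. HSPA8 differs most, at 2318 against 599.9 CPM, and DNAJA1, DNAJB1, HSPA9, DNAJA3, HSPA5 and DNAJB11 are also higher in sh-SOX4 by smaller amounts.

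Among 13 nucleotide exchange factors, which release ADP and the client from HSP70, 6 rose and 1 fell. Of all tested IDs, 23.2% were called higher and 20.9% lower. HSPH1, of the cytosol, had 250.2 and 237 CPM in the sh-SOX4 libraries, against 85.9 and 85.0 CPM in the sh-Scb libraries (log2 fold change 1.51, SE 0.049, adjusted p = 2.59e-08). HSPA4, its relative, had 345 and 323 CPM in the sh-SOX4 libraries, against 182 and 177 CPM in the sh-Scb libraries (log2 fold change 0.90, SE 0.047, adjusted p = 3.87e-07). GRPEL1, of the mitochondrial matrix, had 88.1 and 80.8 CPM in the sh-SOX4 libraries, against 38.9 and 42.5 CPM in the sh-Scb libraries (log2 fold change 1.05, SE 0.071, adjusted p = 1.81e-06). HSPBP1, BAG1 and BAG4 rose too, by 1.29, 0.60 and 0.28 on the log2 scale. With library totals, 5 exchange factors were called higher. The BAG4 call was lost without sh-SOX4 replicate 1 (edgeR adjusted p = 0.117) and without sh-Scb replicate 1 (edgeR adjusted p = 0.0764). GRPEL2 was the gene that fell (log2 fold change -0.17, SE 0.062, adjusted p = 0.0433). Without sh-SOX4 replicate 1, sh-SOX4 replicate 2 or sh-Scb replicate 1 the GRPEL2 value did not pass (edgeR adjusted p = 0.0722, 0.204 and 0.218). The ER factors HYOU1 and SIL1 did not pass. HYOU1 averaged 236 ± 1.54 CPM in sh-SOX4 and 236 ± 6.04 CPM in sh-Scb (SD, n = 2 each), and SIL1 had a log2 fold change of -0.15.

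All 10 adaptors and HSP90 machinery genes on the list rose. HSP90AB1 had 2309.6 and 2264 CPM in the sh-SOX4 libraries, against 889 and 865 CPM in the sh-Scb libraries (log2 fold change 1.38, SE 0.037, adjusted p = 1.05e-08). HSP90AA1, the other cytosolic HSP90, had 2962 and 2923 CPM in the sh-SOX4 libraries, against 1308 and 1234 CPM in the sh-Scb libraries (log2 fold change 1.21, SE 0.039, adjusted p = 2.59e-08). STIP1, which bridges HSP70 to HSP90, had 386 and 391 CPM in the sh-SOX4 libraries, against 208 and 202 CPM in the sh-Scb libraries (log2 fold change 0.92, SE 0.042, adjusted p = 1.58e-07). The smallest rise of the list was that of FKBP5, with a log2 fold change of 0.32. The list median was 0.65, against -0.01 over all tested IDs, and lists of this kind are read against the 23.2% of IDs called higher.

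Some J domains are encoded under other symbols. GAK, the broadly expressed relative of auxilin, fell, with 108 and 121 CPM in the sh-SOX4 libraries, against 138 and 138 CPM in the sh-Scb libraries (log2 fold change -0.27, SE 0.058, adjusted p = 0.00414). SEC63 of the ER translocon and HSCB of iron-sulfur cluster assembly did not pass (log2 fold change -0.11, SE 0.048, and 0.20, SE 0.16). With library totals SEC63 was called lower (edgeR adjusted p = 0.00491).

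The heat shock factor list held the factor genes HSF1, HSF2 and HSF4 and also HSBP1, and all counts of heat shock factors given below cover this list. HSF1, the main activator of chaperone genes in heat shock, had 78.1 and 84.0 CPM in the sh-SOX4 libraries, against 59.4 and 65.7 CPM in the sh-Scb libraries (log2 fold change 0.37, SE 0.067, adjusted p = 0.00124). HSF4 fell, with 4.07 and 3.76 CPM in the sh-SOX4 libraries, against 14.5 and 16.5 CPM in the sh-Scb libraries (log2 fold change -1.99, SE 0.15, adjusted p = 3.7e-06), a level 0.253 times that of sh-Scb. HSF2 did not pass (log2 fold change -0.18, SE 0.069), though it was called lower with library totals and with at least 10 CPM in 2 libraries. Without sh-Scb replicate 2, HSF2 was called lower (edgeR adjusted p = 0.0248). HSBP1, which binds HSF1, rose (log2 fold change 0.27, SE 0.065, edgeR adjusted p = 0.0077), a call that was lost without sh-SOX4 replicate 2. With library totals, 1 gene of this list was called higher.

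Since several members rose together, their promoter windows were read for heat shock elements, the sites that HSF1 is known to bind. RefSeq windows of 250 bases before to 50 bases after a start site (GRCh38.p14) were found for 41 members, with 53 windows among them, and were searched on both strands. The 3-unit element, GAA, NN, TTC, NN and GAA in a row or its reverse complement, was in 2 of 53 member windows, or 3.77%, and in 172 of all 35116 windows, or 0.49%. The 2-unit form GAA, NN and TTC, which each 3-unit site also contains, was in 7 member windows (13.2%) and in 6.77% of all windows. The E-box CACGTG, bound by MYC and related factors, was in 4 member windows (7.55%) and in 7.26% of all windows. The ER stress response element, CCAAT and CCACG with NNNNNNNNN between them, was in none of the member windows and in 0.0769% of all windows. The 3-unit sites belonged to DNAJA1 and DNAJB6, and 2-unit sites to these and to DNAJA4, DNAJB1, DNAJB7 and DNAJC6. Of the 41 members with a window, 18 were called higher. The called-higher genes made up 2 of 2 genes with a 3-unit site, 3 of 6 with a 2-unit site and 2 of 4 with an E-box, counts too small to read a difference from. The stretches below show sites with the matched letters in capitals, on the strand of the gene, 5′ to 3′; they are the 3-unit sites first and then the 2-unit sites before a start site of DNAJB1, the heat-inducible member.
DNAJA1: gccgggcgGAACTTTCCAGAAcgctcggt
DNAJB6: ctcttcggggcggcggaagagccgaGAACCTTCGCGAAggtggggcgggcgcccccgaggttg
DNAJB1: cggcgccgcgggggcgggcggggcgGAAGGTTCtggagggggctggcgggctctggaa
DNAJB1: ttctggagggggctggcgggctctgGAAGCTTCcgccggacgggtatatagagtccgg
The DNAJA1 site begins 3 bases after the start site (DNAJA1 chr9:33025268-33025296, plus strand) and the DNAJB6 site 131 bases before it (DNAJB6 chr7:157336848-157336910, plus strand). The DNAJB1 sites shown begin 77 and 47 bases before a start site, and a 2-unit site that is not shown begins 1 base after another start site of the gene (DNAJB1 chr19:14518442-14518499, minus strand; DNAJB1 chr19:14518412-14518469, minus strand). DNAJC2, DNAJB12 and DNAJC11, which with DNAJA1 had the largest rises among called members, held none of the 4 motifs in these windows. A match is a description of letters and not of binding.

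The libraries carried the T cell markers of the label: all 14 defining genes on the list were counted, at a summed 2928 and 2980 CPM in the sh-SOX4 libraries, against 2413 and 2400 CPM in the sh-Scb libraries. Of these genes 9 rose and 2 fell, set against 23.2% of all tested IDs called higher and 20.9% called lower. Of 8 myeloid markers, CD68 fell, whereas AIF1, S100A9 and S100A8 rose. They summed to 43.0 and 42.7 CPM in the sh-SOX4 libraries, against 20.5 and 23.5 CPM in the sh-Scb libraries, with LYZ at 0 in all 4. Of 6 B cell markers, CD22 and CD79A fell while CD79B rose, at a summed 16.7 and 15.1 CPM in the sh-SOX4 libraries, against 69.4 and 67.4 CPM in the sh-Scb libraries. Among 6 markers of NK and cytotoxic cells, GNLY fell and PRF1 rose, and the list summed to 30.2 and 32.7 CPM in the sh-SOX4 libraries, against 24.7 and 25.2 CPM in the sh-Scb libraries. Of 7 epithelial and fibroblast markers, COL1A1 fell and COL1A2 was at 0 in all 4 libraries. That list summed to 18.5 and 18.5 CPM in the sh-SOX4 libraries, against 25.2 and 27.2 CPM in the sh-Scb libraries. The part of these markers in the J-protein differences was not tested. With library totals in place of TMM, the median over the members was 0.12 on the log2 scale and that over all tested IDs -0.11. Under this scaling 15 members were higher and 4 lower, and the share of all IDs called was not counted.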

How the data were processed

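The values are whole-number counts per Ensembl gene ID, deposited by the authors without normalization. HISAT2 2.2.0 and StringTie, and the build hg38, are listed in the submitters' processing notes without their roles. The annotation release, strand setting and filters are not given in the sources. Per the labels' protocols, libraries were made from TRIzol total RNA with an Illumina TruSeq kit. The columns named NC were read as sh-Scb.

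Symbols, coordinates and overlaps came from GENCODE 29 (GRCh38) and the gene name table, and promoter windows from RefSeq (GRCh38.p14). Per-length levels are CPM per kb of all exonic bases annotated to a gene in GENCODE 29, merged over its transcripts. In R 4.3.3, edgeR 4.0.16 kept IDs by filterByExpr with a minimum count of 10 and a minimum total of 15, applied TMM scaling and ran the robust quasi-likelihood test by group. Every adjusted p of this main fit is Benjamini-Hochberg over the 19897 IDs kept, with 0.05 as threshold. Each alternative was filtered and adjusted on its own set of IDs, with the same threshold. The SE is the absolute log2 fold change over the square root of F. With 2 residual degrees of freedom, the common biological coefficient of variation came to 0.101. Replicates differed beyond sampling noise (median chi-square per gene 1.59 in sh-SOX4 and 1.70 in sh-Scb, against 0.455 for noise alone). The floor for a count of 0 covers counting error only.

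The alternatives tried were size factors by median ratio, library totals, no filter, a filter of 10 CPM in 2 libraries, the replicate number as a block, leaving out each library, DESeq2 1.42.0, limma-voom (limma 3.58.1) and added pseudogene counts. Library values were given for SOX4, class A, and, among called, non-overlapping class B and C members whose mean log2 CPM was 2 or more, the 12 largest rises and up to 8 falls, of which there were 2; others were named by role or because they did not pass. DNAJC5G, DNAJB6, DNAJC8, DNAJC10 and DNAJC24 were described for their role. Of the partner lists, the 3 smallest adjusted p-values and 5 HSP70 genes were named by rule, and others after their values were seen. A result for 1 partner gene is not reported here. Members, lists and rules were chosen with earlier results of these data known. Figures were drawn with matplotlib 3.10.9.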

Additional observations from a re-analysis of the deposited data

How the results depend on the processing

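Under up to 12 alternatives per member, 10 of the 44 tested members changed their side of the threshold and no called value changed sign. Of the 22 called, 17 kept direction and call under every alternative, and DNAJC8, DNAJC10, DNAJC24, DNAJC30 and DNAJC5G lost the call under at least 1. The family count called higher ran from 15 to 19. With library totals the family median was 0.12 (all tested IDs -0.11), and with at least 10 CPM in 2 libraries it was 0.16 (all tested IDs 0.0). That filter left scarce members such as DNAJA4 and DNAJB7 untested, so its count and median cover fewer members. The share of all IDs called was not counted under the alternatives, so their counts stand without that background. DESeq2 called 1 class C member lower. Leaving out each library gave 2 to 5 members called lower, 1 to 2 in class B and 1 to 3 in class C, a family median of 0.16 to 0.20, 0 to 1 HSP70 genes lower, 0 to 1 exchange factors lower, and 1 to 2 heat shock factors higher and 1 to 2 lower. Exchange factors called lower numbered 2 with library totals and with the 10 CPM filter, and 0 with no filter, with DESeq2 and with the replicate block. The 10 CPM filter left 0 HSP70 genes lower, as it removed HSPA12A, at most 2.06 CPM in any library, before testing. With that filter or with library totals, 2 J-domain genes under other symbols and 2 heat shock factors were lower. Library totals left 1 heat shock factor higher. They gave lower log2 fold changes, at 1.02 in place of 1.12 for DNAJA1 and -0.59 in place of -0.49 for SOX4. What moved the other calls was not tested. The replicate number as a block called 17 members higher and 4 lower, DNAJC25-GNG10 among the lower (log2 fold change -1.39, edgeR adjusted p = 0.0209). Across genes, same-numbered libraries did not deviate together (correlation -0.0103). That value cannot show whether they were prepared as pairs, which the labels do not say. With 37 members under 20% shared exonic bases, added after seeing the data, 16 were higher and 3 lower. In that same main fit, 23.2% of all tested IDs were called higher and 20.9% lower. DNAJB7 and DNAJC5B had at most 36 counts in any library.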
